A study of Mus musculus with 6 samples.

Results

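The Wnt module is the set of genes that carry, sense and damp Wnt signals between cells. Its members were taken by gene symbol: numbered Wnt ligands, Frizzled (Fzd) receptors, secreted frizzled-related proteins (Sfrp), Dickkopf (Dkk) proteins, R-spondins (Rspo), Lgr4, Lgr5 and Lgr6, Axins, Tcf7 and the genes named after it, Lef1 and Wif1. This rule used no measured value, but the members were chosen with earlier results of these data known. It found 51 of the 24421 genes in the deposited table: 19 ligands, 10 Frizzled receptors, 9 secreted antagonists, 4 R-spondins, 3 R-spondin receptors, 2 Axins and 4 TCF/LEF transcription factors.

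Expression was measured by sequencing of total RNA in 3 mammary tumours and 3 mammary glands of female mice on the FVB/NJ background, aged 5 months. Tumour donors are labelled MMTV-Tg(LINK-A), a transgene for the long non-coding RNA LINK-A with MMTV, the mouse mammary tumour virus, in its name; the MMTV promoter is active mainly in mammary epithelium. Gland donors are labelled Tg(LINK-A), with no MMTV in the name. Both groups therefore carry a LINK-A transgene by label. Whether the labels name different lines or the same line is not stated. Tumour against gland cannot be told apart from a difference between donor lines, if there is one. The labels do not say that each library came from a separate animal, so p-values reflect no more than the spread among these libraries.

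Wnt proteins are lipid-modified secreted ligands that act over short distances. They bind Frizzled receptors together with the co-receptors Lrp5 and Lrp6, which stops the destruction complex of Axin, Apc and kinases from degrading beta-catenin, and beta-catenin then activates genes through TCF/LEF factors. R-spondins bind Lgr receptors and protect Frizzled proteins from removal by the ubiquitin ligases Rnf43 and Znrf3, while Sfrp, Wif1 and Dkk proteins hold the signal down from outside the cell. In the mammary gland, Wnt and R-spondin signals are known for duct branching and the upkeep of basal stem cells, and Wnt1 was first found as a gene activated by MMTV insertion in mouse mammary tumours.

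Values are FPKM, fragments counted per gene, corrected for the length of the transcript and the size of each library. Their sums lay between 486080 and 582996 in the tumours and between 495985 and 510957 in the glands, and the absolute read depth is unknown. The tissue labels were checked against markers. Luminal epithelial markers summed to 3595 to 3945 FPKM in tumours and 1367 to 1456 FPKM in glands, and 12 of 13 tested rose. Adipocyte markers summed to 95.9 to 354 FPKM in tumours and 8045 to 10235 FPKM in glands, fibroblast markers to 269 to 668 FPKM in tumours and 2432 to 2597 FPKM in glands, and endothelial markers to 24.8 to 52.4 FPKM in tumours and 241 to 283 FPKM in glands; all 10, 12 and 8 of them fell. The adipocyte markers Retn and Pparg were at 0 in tumour 3, and no marker of these 3 lists was at 0 in any other library. Of 12 basal or myoepithelial markers, 7 fell, 1 rose and 4, among them Krt5 and Krt14, did not pass. The 12 summed to 217 to 427 FPKM in tumours and 865 to 924 FPKM in glands. Beside these marker counts, 23.1% of all 13364 tested genes were called lower in tumours and 21.9% higher. The part that these differences play in the Wnt results was not tested, and in bulk tissue fewer cells of a type and less RNA per cell cannot be told apart. Some libraries stood apart: gland 2 held 11760 FPKM of skeletal muscle markers against 13.7 FPKM in gland 1 and 1055 FPKM in gland 3, and lymph node markers summed to 2.28 FPKM in tumour 3 and to 273 to 274 FPKM in glands 1 and 3, against 51.0 to 65.2 FPKM in the other 3 libraries.

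More of the tested Wnt genes fell than rose in the tumours, and on the scale of log2(FPKM + 1) the largest falls were of Rspo1, an amplifier of Wnt signals, Fzd4, a receptor, and Wnt4, a ligand. With a pseudocount of 0.1 FPKM in place of 1, Sfrp5, an antagonist, came after Rspo1 and before Fzd4 and Wnt4, at -4.61 against -7.70, -3.84 and -3.72. Of the 51 members, 31 passed the filter, a 6-library mean of 1 FPKM or more, 14 lay below it and 6 were at 0 in every library. Among the 31 tested, 16 fell and 6 rose in tumours at an adjusted p under 0.05 by limma, and 9 did not pass. Over all 13364 tested genes, 45.1% were called, 23.1% lower and 21.9% higher, and the corresponding shares of tested members were 71% called, 51.6% lower and 19.4% higher. The median log2 fold change, the tumour minus gland difference of log2(FPKM + 1), was -0.58 for the tested members and 0.01 for all tested genes. Tumours and glands did not overlap for 24 members, or 77.4%, against 58.2% of all tested genes. Called and at least 2-fold apart were 14 members, against 22.2% of all tested genes: 11 were lower, against 14.5%, and 3 higher, against 7.67%. Rspo1, Wnt2, Wnt4 and Sfrp5 passed the filter only through the glands, since their tumour means lay under 1 FPKM, so the counts over tested members are no measure of all 51. Without gland 2, where muscle markers were high, 14 of 30 tested members fell and 7 rose, against 21.4% lower and 16.9% higher over all genes of that fit. Without glands 1 and 3, where lymph node markers were high, a single gland remained and was assumed to vary like the tumours. There limma called 5 members lower, Rspo1, Wnt4, Wnt5a, Fzd4 and Wif1, and 0 higher, with 3 higher at an unadjusted p under 0.05. Over all genes of that fit 8.4% were lower and 5.82% higher.

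The 6 that rose were Wnt7b, Fzd5, Fzd6, Fzd7, Sfrp1 and Lgr4. The 16 that fell were Wnt2, Wnt4, Wnt5a, Fzd1, Fzd4, Sfrp2, Sfrp4, Sfrp5, Wif1, Dkk3, Rspo1, Lgr6, Axin2, Tcf7, Tcf7l1 and Tcf7l2. Every role apart from the R-spondins, of which only Rspo1 could be tested, therefore either moved in both directions or held members that did not pass.

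**Figure D1:**
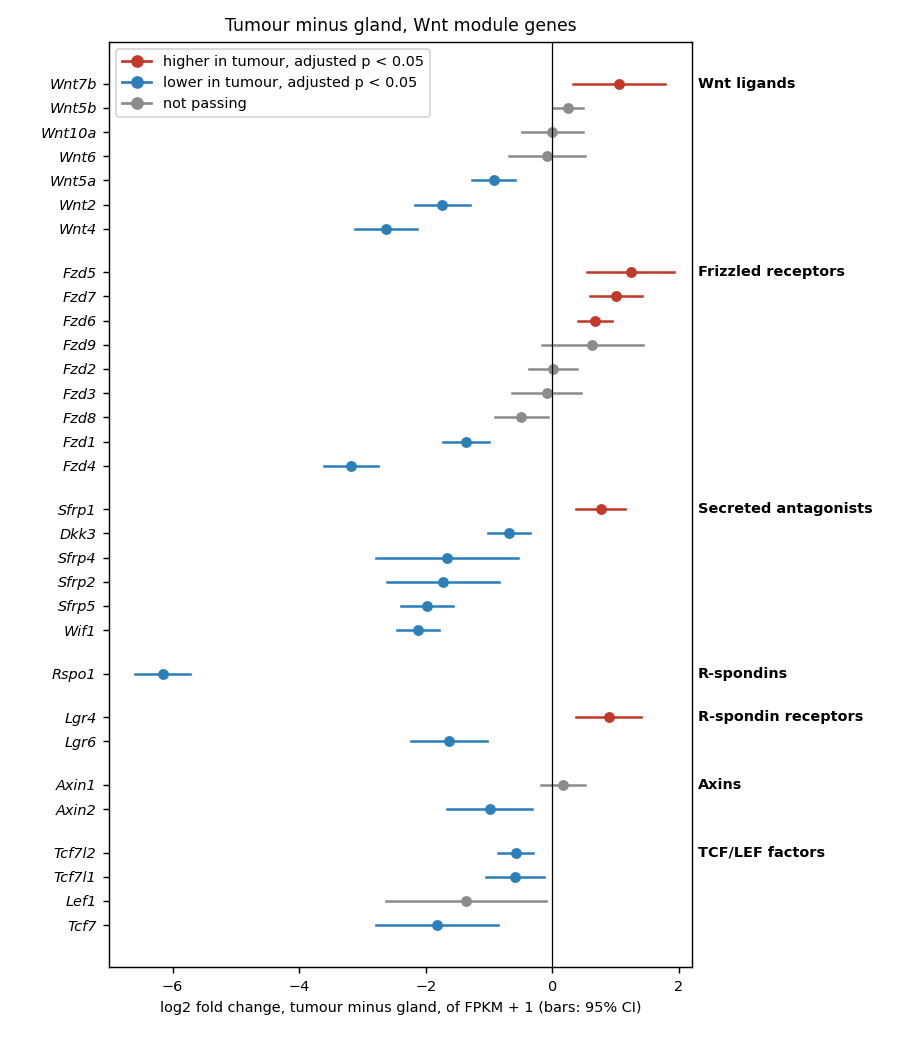
Log2 fold change of FPKM + 1, tumour minus gland, for the 31 tested members by role, with bars for the 95% confidence interval and colour for the call at an adjusted p under 0.05. Rspo1 lies farthest from 0 at -6.16, followed by Fzd4 at -3.19 and Wnt4 at -2.63, and the highest is Fzd5 at 1.24.

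**Figure D2:**
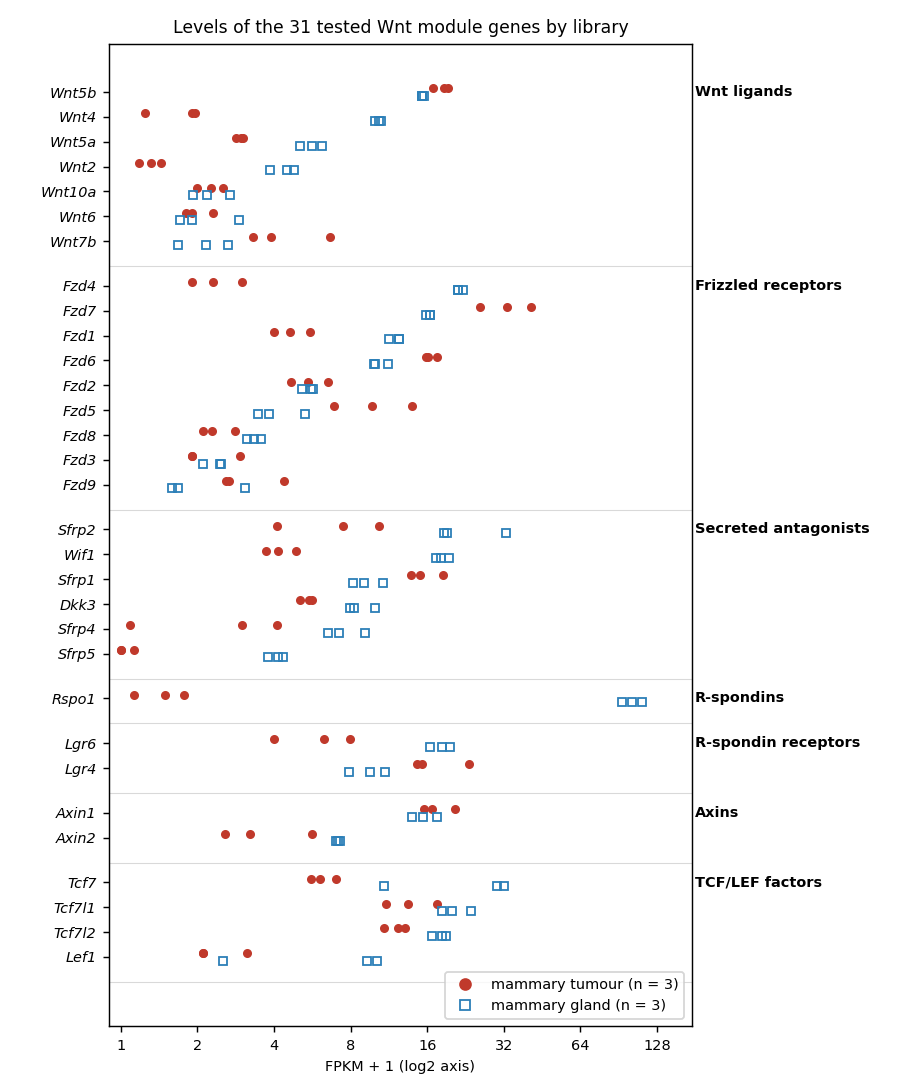
Level of each tested member in each library as FPKM + 1 on a log2 axis, tumours and glands in separate colours. Rspo1 has the widest gap, with all tumours below 1 FPKM and all glands above 92 FPKM.

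Promoter sequence was read for 3 members that the results turn on: Rspo1, which fell the most, Fzd7, the most abundant Frizzled in the tumours, and Axin2, a feedback target of the pathway. The lines give the 250 bases before the RefSeq start on GRCm38.p6, all on the plus strand, with matches to the GC box GGGCGG, on either strand, in capitals.
Rspo1, chr4:124986180-124986429: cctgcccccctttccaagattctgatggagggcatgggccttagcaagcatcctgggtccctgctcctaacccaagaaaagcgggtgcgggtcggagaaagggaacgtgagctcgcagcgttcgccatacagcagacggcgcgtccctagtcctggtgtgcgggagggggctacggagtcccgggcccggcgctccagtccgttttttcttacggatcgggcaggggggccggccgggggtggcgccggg
Fzd7, chr1:59481897-59482146: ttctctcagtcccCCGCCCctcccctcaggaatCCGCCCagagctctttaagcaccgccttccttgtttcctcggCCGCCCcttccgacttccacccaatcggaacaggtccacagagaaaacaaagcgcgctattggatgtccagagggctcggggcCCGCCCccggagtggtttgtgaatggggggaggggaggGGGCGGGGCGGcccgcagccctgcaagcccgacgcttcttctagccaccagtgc
Axin2, chr11:108920099-108920348: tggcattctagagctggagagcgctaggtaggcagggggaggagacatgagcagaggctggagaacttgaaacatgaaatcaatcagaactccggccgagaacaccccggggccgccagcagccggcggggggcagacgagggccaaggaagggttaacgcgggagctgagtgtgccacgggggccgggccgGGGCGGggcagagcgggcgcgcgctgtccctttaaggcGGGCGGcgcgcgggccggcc
The Rspo1 window holds 0 GC boxes and the Fzd7 window 6, of which 1 pair overlaps, while the Axin2 window holds 2. RefSeq had a promoter entry for 35 of the 51 members, with 43 windows searched. A GC box lay in 72.1% of these and in 32.7% of the 32851 mouse windows of the same length, not matched for GC content. The TCF/LEF motif, searched as CTTTGAA or CTTTGAT on both strands, lay in 3 of the 43 windows (6.98%), those of Wnt11, Dkk1 and 1 start of Wnt5b, and in 7.48% of all mouse windows; none of the 3 printed stretches holds it. The motif matches describe these letters and no binding.

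Of the 19 Wnt ligands, 7 could be tested: Wnt2, Wnt4 and Wnt5a fell, Wnt7b rose, and Wnt5b, Wnt6 and Wnt10a did not pass. The 42.9% lower and 14.3% higher are counts of few genes beside the 23.1% and 21.9% of all tested genes. Wnt2 and Wnt4 passed the filter only through the glands. Wnt4 (chr4:137277489-137299726, plus strand, GRCm38) is the ligand that progesterone induces in hormone-sensing luminal cells of the gland. It had 0.243, 0.908 and 0.962 FPKM in tumours 1 to 3, against 9.38, 9.57 and 8.98 FPKM in glands 1 to 3. The groups were far apart, with means of 0.704 ± 0.401 FPKM in tumours and 9.31 ± 0.303 FPKM in glands (SD, n = 3 each) and a log2 difference of -2.63 ± 0.21 (SE, adjusted p = 1.5e-04). Among 8 tested hormone-sensing luminal markers, 5 fell, 1 rose and 2 did not pass. That is 62.5% lower and 12.5% higher, in few genes, against 23.1% and 21.9% of all tested genes. Tnfsf11, the progesterone-induced cytokine RANKL, had 0.577, 0.328 and 0 FPKM in tumours 1 to 3, against 14.6, 16.8 and 19.4 FPKM in glands 1 to 3. With a tumour mean of 0.302 FPKM, Tnfsf11 passed the filter only through the glands. Esr1, the oestrogen receptor, had 1.20, 2.12 and 1.20 FPKM in tumours 1 to 3, against 7.88, 9.49 and 8.72 FPKM in glands 1 to 3. Prom1, the marker that rose, averaged 11.8 FPKM in tumours and 1.84 FPKM in glands, a log2 difference of 2.19 (adjusted p = 2.4e-04 by limma). Prlr averaged 10.9 FPKM in tumours and 11.7 FPKM in glands and did not pass. The 9 genes of that list summed to 107 to 292 FPKM in tumours and 218 to 261 FPKM in glands, most of it from Ly6a, and their part in the Wnt4 difference was not tested.

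Wnt2 (chr6:17988940-18030585, minus strand), a canonical ligand known from mesenchyme of several organs, had 0.444, 0.317 and 0.183 FPKM in tumours 1 to 3, against 3.49, 2.86 and 3.79 FPKM in glands 1 to 3. All 3 tumours lay below all 3 glands, with a log2 difference of -1.74 ± 0.18 (SE, adjusted p = 4.4e-04). With a pseudocount of 0.1 FPKM in place of 1 the Wnt2 fold change was -3.11, since the scale compresses changes of low genes. Wnt5a, which signals mainly without beta-catenin and restrains duct growth, had 1.84, 1.96 and 2.03 FPKM in tumours 1 to 3, against 4.63, 5.17 and 4.06 FPKM in glands 1 to 3. The tumours were close to each other and again below every gland, with a log2 difference of -0.93 ± 0.14 (SE, adjusted p = 0.00227); quantile normalization gave -0.54. Fibroblast and endothelial markers fell with these ligands, and their part was not tested.

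Wnt7b, an epithelial ligand, was the only ligand called higher. It had 2.31, 2.88 and 5.61 FPKM in tumours 1 to 3, against 0.673, 1.63 and 1.16 FPKM in glands 1 to 3. The lowest tumour lay above the highest gland, with tumour 3 well above the other tumours, and the mean was 3.60 ± 1.76 FPKM in tumours and 1.16 ± 0.480 FPKM in glands (SD, n = 3 each). This gave a log2 difference of 1.05 ± 0.31 (SE, adjusted p = 0.0287). The call did not pass without tumour 2 (adjusted p = 0.0578), gland 1 (0.0893) or gland 3 (0.0786), with adjusted p-values between 0.00504 and 0.345 over all settings tried.

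Wnt5b, a close relative of Wnt5a, was the most abundant ligand in every library. It had 15.9, 18.3 and 17.7 FPKM in tumours 1 to 3, against 14.2, 14.3 and 14.6 FPKM in glands 1 to 3. The tumours lay just above the glands, but a log2 difference of 0.25 ± 0.10 (SE, adjusted p = 0.0854) did not pass, and its 95% interval ran from 0.01 to 0.49; without tumour 1 the adjusted p was 0.0484, with values between 0.0484 and 0.379 over all settings tried. Wnt6 and Wnt10a, neighbours 6193 bases apart on chromosome 1, had overlapping groups. Wnt6 had 0.798, 1.30 and 0.910 FPKM in tumours 1 to 3, against 0.715, 1.91 and 0.905 FPKM in glands 1 to 3. Wnt10a had 1.26, 1.51 and 0.985 FPKM in tumours 1 to 3, against 0.921, 1.68 and 1.18 FPKM in glands 1 to 3, with 95% intervals of the log2 fold change of -0.69 to 0.51 and -0.48 to 0.49. Wnt10a was called higher with quantile normalization (0.60, adjusted p = 0.043), with adjusted p-values between 0.043 and 0.998 over all settings tried.

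As a share of summed ligand FPKM, Wnt5b made up 63.3, 63.9 and 60.4% in tumours 1 to 3, against 37.3, 34.3 and 36.3% in glands 1 to 3. Wnt4 made up 0.967, 3.17 and 3.28% in tumours and 24.7, 23.0 and 22.4% in glands. Wnt7b made up 9.20, 10.1 and 19.1% in tumours and 1.77, 3.92 and 2.90% in glands. The sum itself was 25.1, 28.6 and 29.3 FPKM in tumours and 38.1, 41.7 and 40.1 FPKM in glands, so the ligand sum was lower, and its Wnt5b share higher, in each tumour than in any gland.

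The other 12 ligands lay below the filter. Wnt1, Wnt3a and Wnt8b were at 0 in all libraries. Wnt11, which acts in cell movement, had 0.313, 0.198 and 0.207 FPKM in tumours 1 to 3, against 1.20, 1.93 and 1.88 FPKM in glands 1 to 3. Wnt10b, a ligand of early mammary development, had 0.423, 0 and 0 FPKM in tumours 1 to 3, against 0.553, 0.906 and 0.750 FPKM in glands 1 to 3. Wnt2b had 0.265, 0.146 and 0.348 FPKM in tumours 1 to 3, against 0.652, 0.683 and 0.738 FPKM in glands 1 to 3. These 3 were lower in every tumour than in any gland. In a fit with no filter, which tested 18174 genes and called 20.9% of them lower and 16.3% higher, Wnt11 (log2 fold change -1.09, adjusted p = 0.00195), Wnt2b (-0.44, 0.0117) and Wnt10b (-0.62, 0.0281) were called lower. Wnt9a had 1.17, 0.789 and 0.306 FPKM in tumours 1 to 3, against 0.743, 0.941 and 0.721 FPKM in glands 1 to 3, and its groups overlapped. Wnt16 reached at most 0.181 FPKM in tumours and 0.824 FPKM in glands, and Wnt3, Wnt7a, Wnt8a and Wnt9b were at 0 in most libraries and no higher than 0.553 FPKM in any. Wnt1, Wnt3 and Wnt10b, known targets of MMTV insertion, were at or under 0.423 FPKM in every tumour, and insertion was not tested.

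The 9 tested Frizzled receptors split: Fzd5, Fzd6 and Fzd7 rose, Fzd1 and Fzd4 fell, and 4 did not pass. The shares called, 33.3% higher and 22.2% lower, are counts of few genes beside the 21.9% and 23.1% of all tested genes. Fzd4 (chr7:89404355-89413134, plus strand) is the receptor for the non-Wnt ligand Norrin as well as for Wnts and is prominent in endothelium. It had 0.912, 1.98 and 1.30 FPKM in tumours 1 to 3, against 20.1, 21.1 and 20.1 FPKM in glands 1 to 3. The tumours held a small part of the gland level, with means of 1.40 ± 0.541 FPKM in tumours and 20.4 ± 0.605 FPKM in glands (SD, n = 3 each) and a log2 difference of -3.19 ± 0.18 (SE, adjusted p = 4.8e-05). Norrin itself, Ndp, lay below the filter with 0.246, 0.155 and 0 FPKM in tumours and 1.82, 1.29 and 1.93 FPKM in glands. The Norrin co-receptor Tspan12 averaged 21.6 ± 1.57 FPKM in tumours and 28.2 ± 2.76 FPKM in glands, a log2 difference of -0.37 ± 0.12 (SE, adjusted p = 0.0386), and lost that call without any 1 of the tumours, gland 2 or gland 3 (adjusted p between 0.0233 and 0.182 over all settings tried). Tspan12 was also not called with a replicate block, with tumours 1 and 2 averaged or with no mean-variance trend. Ndp and Tspan12 were chosen after their values were seen. The endothelial markers fell with Fzd4, as given above, and Cdh5, the endothelial cadherin, had 9.61, 10.7 and 5.57 FPKM in tumours 1 to 3, against 55.2, 44.1 and 53.3 FPKM in glands 1 to 3. The part of endothelium was not tested.

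Fzd1, a receptor for canonical ligands, had 3.60, 4.56 and 3.02 FPKM in tumours 1 to 3, against 11.4, 10.3 and 11.4 FPKM in glands 1 to 3. No tumour reached the level of a gland, with a log2 difference of -1.36 ± 0.15 (SE, adjusted p = 6.0e-04).

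Fzd7 (chr1:59482424-59486955, plus strand), known from basal mammary cells and basal-like breast cancer, was the most abundant Frizzled in the tumours. It had 24.8, 31.8 and 39.8 FPKM in tumours 1 to 3, against 15.4, 15.4 and 14.9 FPKM in glands 1 to 3. The glands were nearly equal and every tumour lay above them, with means of 32.2 ± 7.51 FPKM in tumours and 15.2 ± 0.301 FPKM in glands (SD, n = 3 each) and a log2 difference of 1.01 ± 0.17 (SE, adjusted p = 0.00335). Fzd5, known from intestinal crypts, had 5.85, 8.70 and 12.9 FPKM in tumours 1 to 3, against 4.30, 2.46 and 2.84 FPKM in glands 1 to 3. The groups did not overlap, with a log2 difference of 1.24 ± 0.29 (SE, adjusted p = 0.0125). Fzd6, a planar polarity receptor, had 14.8, 15.1 and 16.6 FPKM in tumours 1 to 3, against 8.93, 10.3 and 8.90 FPKM in glands 1 to 3, with little spread in either group and a log2 difference of 0.67 ± 0.11 (SE, adjusted p = 0.0031). Luminal markers were higher in the same tumours, as given above. The basal or myoepithelial markers were mixed: Oxtr, Actg2, Mylk and Myh11 were among the 7 that fell, while Itga6 rose. Krt5 had 92.9, 91.0 and 34.3 FPKM in tumours 1 to 3, against 51.8, 54.3 and 58.9 FPKM in glands 1 to 3. Krt14 had 137, 133 and 39.7 FPKM in tumours, against 87.3, 94.3 and 85.3 FPKM in glands, and neither keratin passed. The part of these cell types was not tested.

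Fzd8 had 1.10, 1.82 and 1.28 FPKM in tumours 1 to 3, against 2.34, 2.14 and 2.56 FPKM in glands 1 to 3. Every tumour lay below every gland, but a log2 difference of -0.49 ± 0.18 (SE, adjusted p = 0.0615) did not pass, with a 95% interval of -0.91 to -0.07. It was called with median-of-ratios scaling (0.0454), without tumour 2 (0.0499) and with no mean-variance trend (0.0335), with adjusted p-values between 0.0335 and 0.836 over all settings tried. Fzd2, a close relative of Fzd1 and Fzd7, had 3.68, 4.46 and 5.49 FPKM in tumours 1 to 3, against 4.57, 4.71 and 4.17 FPKM in glands 1 to 3. Fzd3, a receptor of axon guidance and planar polarity, had 0.912, 0.911 and 1.94 FPKM in tumours 1 to 3, against 1.46, 1.47 and 1.11 FPKM in glands 1 to 3. Fzd9 had 1.67, 1.59 and 3.37 FPKM in tumours 1 to 3, against 0.583, 2.07 and 0.677 FPKM in glands 1 to 3. These 3 had overlapping groups, and their log2 fold changes were 0.00, -0.09 and 0.63, with intervals of -0.38 to 0.38, -0.63 to 0.46 and -0.16 to 1.43. Fzd9 was called higher with quantile normalization (1.09, adjusted p = 0.0379) and without gland 2 (0.94, 0.0437), with adjusted p-values between 0.0379 and 0.976 over all settings tried. Fzd10 lay below the filter with 0.158, 0.175 and 0.132 FPKM in tumours 1 to 3, against 1.20, 1.002 and 1.53 FPKM in glands 1 to 3. With no filter it was called lower (log2 fold change -0.95, adjusted p = 0.00132).

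Summed Frizzled FPKM was 57.5, 71.1 and 85.8 in tumours and 70.3, 70.9 and 68.1 in glands, and overlapped. Its make-up did not: Fzd7 was 43.1, 44.8 and 46.4% of the sum in tumours and 21.9, 21.7 and 21.8% in glands, while Fzd4 was 1.58, 2.79 and 1.51% in tumours and 28.6, 29.8 and 29.5% in glands. Fzd6 was 25.8, 21.2 and 19.3% in tumours and 12.7, 14.5 and 13.1% in glands, and Fzd1 was 6.26, 6.42 and 3.51% in tumours and 16.3, 14.5 and 16.7% in glands. Fzd4 held the largest share in each gland and Fzd7 the largest share in each tumour.

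**Figure D3:**
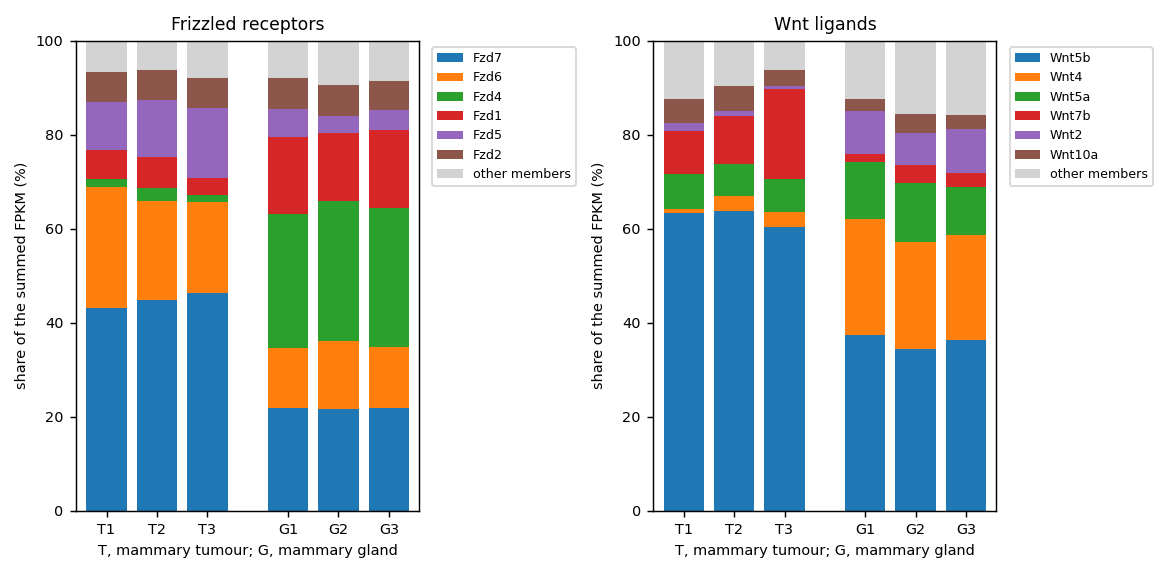
Share of summed FPKM, in percent, taken by each Frizzled and each Wnt ligand in tumours 1 to 3 and then glands 1 to 3 as stacked bars. Fzd7 takes 43.1 to 46.4% in tumours and 21.7 to 21.9% in glands, and Wnt5b takes 60.4 to 63.9% of the ligand sum in tumours and 34.3 to 37.3% in glands.

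All 6 tested secreted antagonists changed, and 5 of them fell. That is 83.3% lower and 16.7% higher, counts of few genes beside the 23.1% and 21.9% of all tested genes. Sfrp5 passed the filter only through the glands. Wif1 (chr10:121033960-121100650, plus strand), Wnt inhibitory factor 1, binds Wnt ligands directly. It had 3.14, 3.86 and 2.71 FPKM in tumours 1 to 3, against 18.5, 16.3 and 17.2 FPKM in glands 1 to 3. Tumours and glands were well separated, with means of 3.24 ± 0.582 FPKM in tumours and 17.3 ± 1.14 FPKM in glands (SD, n = 3 each) and a log2 difference of -2.12 ± 0.14 (SE, adjusted p = 8.2e-05). Sfrp5, an antagonist known from adipose tissue, was at 0, 0 and 0.124 FPKM in tumours, against 3.16, 3.33 and 2.79 FPKM in glands. The log2 fold change of Sfrp5 was -1.97 (SE 0.17, adjusted p = 2.2e-04) with a pseudocount of 1 FPKM and -4.61 with 0.1 FPKM. Adipocyte markers such as Lep, at 1.12, 0.846 and 0.0962 FPKM in tumours and 46.4, 48.9 and 48.0 FPKM in glands, fell with it, and their part was not tested. Lep, with a tumour mean of 0.688 FPKM, also passed the filter only through the glands.

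Sfrp2 and Sfrp4, secreted mainly by fibroblasts, fell together with the fibroblast markers given above. Sfrp2 had 6.47, 9.30 and 3.11 FPKM in tumours 1 to 3, against 17.6, 31.7 and 18.1 FPKM in glands 1 to 3. Gland 2 was the highest and tumour 3 the lowest, and the groups did not overlap (log2 difference -1.73 ± 0.37 SE, adjusted p = 0.00907). Sfrp4 had 1.98, 3.12 and 0.0891 FPKM in tumours 1 to 3, against 5.50, 6.17 and 8.15 FPKM in glands 1 to 3. Tumour 3 stood far below the other tumours, and a log2 difference of -1.66 ± 0.47 (SE, adjusted p = 0.0262) had the largest adjusted p of the antagonists that fell. Without tumour 3 the Sfrp4 fold change was -1.10 with an adjusted p of 0.0073. The call was lost without gland 1 (0.053), gland 2 (0.0617) or gland 3 (0.0886), and with a pseudocount of 0.1 FPKM (0.0722), with adjusted p-values between 0.0073 and 0.277 over all settings tried. Dkk3, a divergent Dickkopf whose action on Wnt signals is weak, had 4.05, 4.49 and 4.63 FPKM in tumours 1 to 3, against 6.95, 8.98 and 7.25 FPKM in glands 1 to 3. This gave a log2 difference of -0.69 ± 0.14 (SE, adjusted p = 0.00694).

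Sfrp1 was the exception. It had 12.9, 14.0 and 17.5 FPKM in tumours 1 to 3, against 7.99, 9.72 and 7.17 FPKM in glands 1 to 3. Every tumour exceeded every gland, with a log2 difference of 0.76 ± 0.16 (SE, adjusted p = 0.00837), and Sfrp1 was 44.7, 39.7 and 61.7% of summed antagonist FPKM in tumours against 13.2, 12.7 and 11.6% in glands. The sum of all antagonists was 28.8, 35.4 and 28.3 FPKM in tumours and 60.5, 76.6 and 61.7 FPKM in glands. Dkk1 and Dkk4, which block Lrp5 and Lrp6, were at 0 in all libraries, and Dkk2 lay below the filter with 0.309, 0.582 and 0.169 FPKM in tumours 1 to 3, against 0.800, 0.437 and 1.14 FPKM in glands 1 to 3, in overlapping groups.

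R-spondin RNA was nearly all Rspo1 in the glands and nearly absent from the tumours. Rspo1 (chr4:124986430-125009099, plus strand), whose upstream sequence is given above, is an R-spondin made by luminal cells that amplifies Wnt signals in the gland. It had 0.767, 0.488 and 0.129 FPKM in tumours 1 to 3, against 111, 92.6 and 101 FPKM in glands 1 to 3. The highest tumour held less than 1 FPKM, where the lowest gland held 92.6 FPKM, with means of 0.461 ± 0.320 FPKM in tumours and 102 ± 9.27 FPKM in glands (SD, n = 3 each) and a log2 difference of -6.16 ± 0.18 (SE, adjusted p = 7.7e-06). The Rspo1 fold change stayed between -6.30 and -5.98 when any 1 library was left out. Rspo3 had 0, 0.188 and 0.390 FPKM in tumours and 0.204, 0.395 and 0.517 FPKM in glands, Rspo4 was at 0 in tumours and at 0.0690, 0.197 and 0 FPKM in glands, and Rspo2 was at 0 throughout. Rspo2 and Rspo3, which like Wnt1 are known targets of MMTV insertion, stayed at or under 0.390 FPKM in the tumours, and insertion was not tested.

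The receptors for R-spondins moved in opposite directions. Lgr4, broadly expressed in epithelia, had 14.3, 13.6 and 22.4 FPKM in tumours 1 to 3, against 6.89, 9.93 and 8.55 FPKM in glands 1 to 3. Tumours lay above glands, led by tumour 3, with a log2 difference of 0.89 ± 0.22 (SE, adjusted p = 0.015). That call was lost without gland 1 (adjusted p = 0.0522), with values between 0.0116 and 0.272 over all settings tried. Lgr6, a marker of progenitor cells in skin and mammary gland, had 5.29, 6.95 and 2.99 FPKM in tumours 1 to 3, against 18.7, 15.4 and 17.2 FPKM in glands 1 to 3. Glands were all well above the tumours, with a log2 difference of -1.63 ± 0.25 (SE, adjusted p = 0.00223). Lgr4 made up 69.9, 64.7 and 87.2% of summed Lgr4, Lgr5 and Lgr6 FPKM in tumours and 26.6, 37.9 and 32.6% in glands. Lgr5, the stem cell marker of the intestine, lay below the filter with 0.876, 0.488 and 0.298 FPKM in tumours 1 to 3, against 0.298, 0.884 and 0.413 FPKM in glands 1 to 3, and its groups overlapped.

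Axin1, the constant scaffold of the destruction complex, had 14.6, 15.7 and 19.5 FPKM in tumours 1 to 3, against 16.5, 12.9 and 14.5 FPKM in glands 1 to 3, with overlapping groups and a log2 fold change of 0.17 (95% interval -0.18 to 0.52). Axin2, its relative that beta-catenin induces as negative feedback, had 1.56, 2.22 and 4.64 FPKM in tumours 1 to 3, against 6.27, 6.02 and 6.15 FPKM in glands 1 to 3. The glands were nearly equal, the tumours lay below them and spread widely, with tumour 3 the closest to the glands, which gave a log2 difference of -0.99 ± 0.28 (SE, adjusted p = 0.0274). The Axin2 call was lost when any 1 of tumour 1, tumour 2 or the 3 glands was left out, at adjusted p-values of 0.0583 to 0.0865, and with quantile normalization (0.0603), and its adjusted p lay between 9.2e-04 and 0.281 over all settings tried. Axin2 was also not called with tumours 1 and 2 averaged. Reads from the antisense gene Gm11670, which overlaps an Axin2 exon, cannot be told apart because the strandedness of the libraries is not given.

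Of the 4 TCF/LEF factors, 3 fell and Lef1 did not pass. A share of 75% lower is here a count of few genes beside the 23.1% of all tested genes. Tcf7l2, the main factor of epithelia, had 9.78, 11.3 and 12.1 FPKM in tumours 1 to 3, against 17.9, 15.8 and 17.3 FPKM in glands 1 to 3. The groups were tight and apart, with a log2 difference of -0.58 ± 0.12 (SE, adjusted p = 0.00753). Tcf7l1, mostly a repressor, had 12.4, 16.4 and 9.97 FPKM in tumours 1 to 3, against 22.7, 17.3 and 19.0 FPKM in glands 1 to 3. Tumour 2 came within 1 FPKM of gland 2, and a log2 difference of -0.58 ± 0.19 (SE, adjusted p = 0.0451) lay just inside the threshold. The Tcf7l1 call was lost with no filter on low values, a replicate block or no mean-variance trend. That call was lost without tumour 1, without tumour 3 or without any gland, at adjusted p-values of 0.0595 to 0.139, with values between 0.021 and 0.432 over all settings tried.

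Tcf7 and Lef1 are also the TCF/LEF factors of T lymphocytes, and both were high in the same glands as the lymph node markers. Tcf7 had 5.07, 6.03 and 4.60 FPKM in tumours 1 to 3, against 31.1, 9.82 and 29.1 FPKM in glands 1 to 3. Lef1 had 1.11, 1.10 and 2.13 FPKM in tumours 1 to 3, against 8.29, 1.53 and 9.17 FPKM in glands 1 to 3. Glands 1 and 3 were high for both and gland 2 was low. Cd3e, a T cell receptor subunit, had 5.38, 5.67 and 0.856 FPKM in tumours 1 to 3, against 35.1, 8.49 and 35.2 FPKM in glands 1 to 3. The 11 lymph node markers summed to 65.2, 55.2 and 2.28 FPKM in tumours and 274, 51.0 and 273 FPKM in glands. Of the 10 lymph node markers tested, 2 fell and 8 did not pass, or 20% lower, near the 23.1% of all tested genes. Tcf7 had a log2 difference of -1.82 ± 0.41 (SE, adjusted p = 0.0106) over all libraries and -0.80 (adjusted p = 0.106) without glands 1 and 3 together. Lef1 had a log2 difference of -1.37 ± 0.53 (SE, adjusted p = 0.0747), a 95% interval of -2.63 to -0.11, and -2.02 (adjusted p = 0.00188) without gland 2. Adjusted p-values over all settings tried lay between 4.1e-04 and 0.106 for Tcf7 and between 0.00188 and 0.891 for Lef1. The part of lymphocytes in these differences was not tested.

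**Figure D4:**
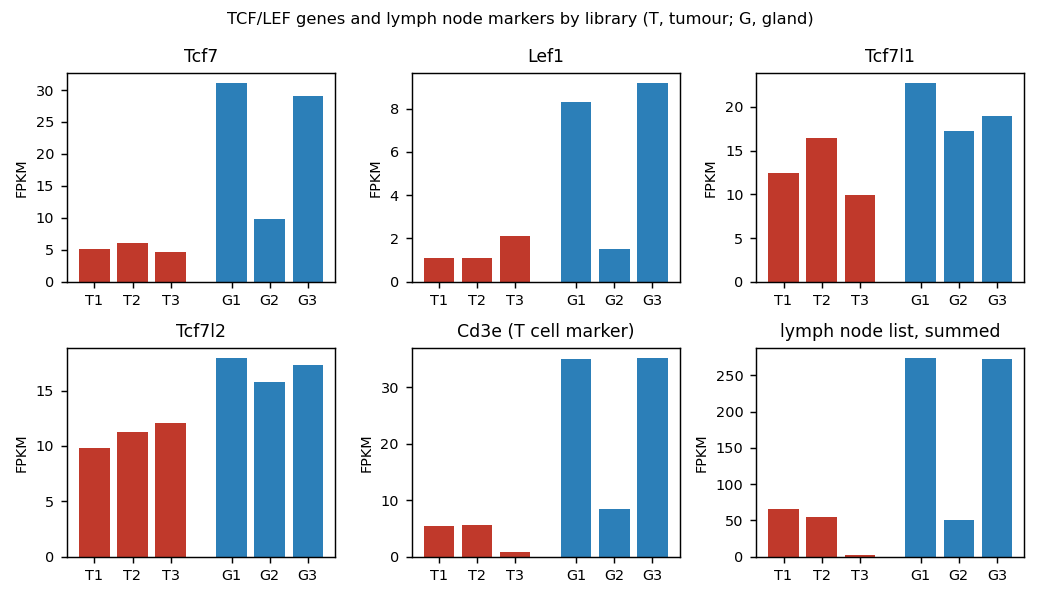
FPKM of the 4 TCF/LEF factors, Cd3e and the summed lymph node markers in each tumour (T) and gland (G) library, with axes from 0. Glands 1 and 3 stand above gland 2 for Tcf7, Lef1, Cd3e and the lymph node sum, while Tcf7l2 is 9.78 to 12.1 FPKM in tumours and 15.8 to 17.9 FPKM in glands.

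The rest of the pathway was taken from 5 lists holding 86 genes that are not members. Of 73 tested, 19 fell, 13 rose and 41 did not pass, or 43.8% called, near the 45.1% of all tested genes, and their median log2 fold change was -0.02. Nkd1, Dact1, Pygo1, Daam2 and Ephb2, named below, had tumour means under 1 FPKM and passed the filter only through the glands. Mmp7, at 0 in all glands, passed it only through the tumours. The counts over tested list genes are therefore no measure of all 86. Among 16 tested genes for ligand processing and co-receptors, 6 fell and 2 rose, or 37.5% and 12.5%, against 23.1% and 21.9% of all tested genes. Porcn, which adds the lipid to Wnt proteins, averaged 2.58 ± 0.547 FPKM in tumours and 5.53 ± 0.558 FPKM in glands (SD, n = 3 each), a log2 difference of -0.87 ± 0.16 (SE, adjusted p = 0.00498). Wls, the carrier that brings Wnts to the cell surface, had 49.1, 44.6 and 50.9 FPKM in tumours 1 to 3, against 37.3, 40.8 and 40.1 FPKM in glands 1 to 3. The result, a log2 difference of 0.28 ± 0.10 (SE, adjusted p = 0.0532), did not pass, and passed with no filter on low values (0.0434, with values between 0.0434 and 0.368 over all settings tried). Reck, a co-receptor known for Wnt7 signals in brain endothelium, averaged 1.12 ± 0.306 FPKM in tumours and 6.01 ± 0.672 FPKM in glands (SD, n = 3 each), a log2 difference of -1.73 ± 0.17 (SE, adjusted p = 3.5e-04). Its partner Adgra2, chosen after its values were seen, averaged 7.22 ± 0.713 FPKM in tumours and 10.4 ± 0.675 FPKM in glands (SD, n = 3 each), a log2 difference of -0.48 ± 0.12 (SE, adjusted p = 0.017), a call lost without gland 2 or gland 3 (adjusted p between 0.0154 and 0.201 over all settings tried). With a replicate block, Adgra2 did not pass either. Ror1, a Wnt5a receptor, and Gpc6, a glypican that binds Wnts at the cell surface, had log2 fold changes of -0.89 and -1.19 and both fell (adjusted p = 0.00669 and 0.00252).

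Ptk7, a planar polarity co-receptor, had 30.1, 34.5 and 62.4 FPKM in tumours 1 to 3, against 18.8, 15.4 and 19.7 FPKM in glands 1 to 3. This gave a log2 difference of 1.13 ± 0.27 (SE, adjusted p = 0.0133). Lrp5, the co-receptor of the canonical route, had 26.0, 41.2 and 59.9 FPKM in tumours 1 to 3, against 24.2, 21.9 and 20.1 FPKM in glands 1 to 3. Tumours lay above glands with a wide spread, and a log2 difference of 0.84 ± 0.28 (SE, adjusted p = 0.0456) was close to the threshold. Without tumour 3 it was 0.55 (0.0612), and it did not pass without tumour 2 or any gland either, with values between 0.00547 and 0.322 over all settings tried. The Lrp5 call was also lost with quantile normalization, a common sum per library, a replicate block, no filter on low values or no mean-variance trend. Rnf43, a ubiquitin ligase that removes Frizzleds and a target of the pathway, had 8.30, 11.4 and 16.0 FPKM in tumours 1 to 3, against 8.20, 7.45 and 6.88 FPKM in glands 1 to 3. The result, a log2 difference of 0.56 ± 0.22 (SE, adjusted p = 0.0786), did not pass although the groups were apart. Rnf43 was called with quantile normalization (adjusted p = 0.0261) and without tumour 1 (0.016), with values between 0.016 and 0.39 over all settings tried.

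Of 5 tested other secreted or membrane inhibitors, 3 fell and 2 did not pass, or 60% lower, in few genes, against 23.1% of all tested genes. Apcdd1, a membrane inhibitor and target of the pathway, had 1.64, 1.46 and 1.56 FPKM in tumours 1 to 3, against 13.4, 13.2 and 14.3 FPKM in glands 1 to 3. Its level in each group varied little, with a log2 difference of -2.52 ± 0.12 (SE, adjusted p = 2.6e-05). Igfbp4, an IGF-binding protein that also hinders Frizzled and Lrp6, averaged 91.4 ± 10.3 FPKM in tumours and 182 ± 12.2 FPKM in glands (SD, n = 3 each), a log2 difference of -0.99 ± 0.12 (SE, adjusted p = 7.9e-04).

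Among 29 tested cytoplasmic and nuclear components, 5 rose, 4 fell and 20 did not pass, with a median of 0.10. The share called was 31%, against 45.1% of all tested genes. Ctnnb1, beta-catenin itself, had 199, 210.4 and 228 FPKM in tumours 1 to 3, against 157, 147 and 162 FPKM in glands 1 to 3. This gave a log2 difference of 0.45 ± 0.10 (SE, adjusted p = 0.0117). It did not pass with quantile normalization or a common sum per library, with values between 0.0094 and 0.126 over all settings tried. The Ctnnb1 call was also lost with a replicate block. Dishevelled antagonists moved in opposite directions. Nkd1 had 0.244, 0.598 and 0.566 FPKM in tumours 1 to 3, against 3.43, 3.93 and 4.68 FPKM in glands 1 to 3. It fell (log2 difference -1.77 ± 0.19 SE, adjusted p = 4.9e-04). Nkd2 had 5.47, 6.43 and 12.1 FPKM in tumours 1 to 3, against 3.59, 3.37 and 2.69 FPKM in glands 1 to 3. It rose (log2 difference 1.03 ± 0.27 SE, adjusted p = 0.0207), a call lost without gland 3 (adjusted p between 0.00554 and 0.255 over all settings tried). Dact2 averaged 42.3 ± 4.58 FPKM in tumours and 17.5 ± 0.319 FPKM in glands (SD, n = 3 each). It rose (log2 difference 1.22 ± 0.11 SE, adjusted p = 2.6e-04). Dact1 averaged 0.712 ± 0.302 FPKM in tumours and 3.06 ± 0.659 FPKM in glands (SD, n = 3 each). It fell (log2 difference -1.25 ± 0.22 SE, adjusted p = 0.00384). Pygo2, the epithelial Pygopus that helps beta-catenin activate genes, rose by 0.49 (log2), and its relative Pygo1 fell, with -1.22 (adjusted p = 0.0178 and 0.0113). With a common sum per library or a replicate block, Pygo2 did not pass. Pygo2 lost its call without tumour 2, gland 1 or gland 2, and Pygo1 with quantile normalization (-0.59), with adjusted p between 0.00915 and 0.122 for Pygo2 and between 0.00839 and 0.203 for Pygo1 over all settings tried.

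Of 10 tested planar polarity genes, 2 rose, 1 fell and 7 did not pass, or 30% called, against 45.1% of all tested genes. Celsr2, an adhesion receptor, averaged 19.1 ± 7.73 FPKM in tumours and 7.52 ± 1.30 FPKM in glands (SD, n = 3 each), a log2 difference of 1.17 ± 0.29 (SE, adjusted p = 0.0161), a call lost without tumour 2, gland 2 or gland 3 (adjusted p between 0.00347 and 0.153 over all settings tried). Daam2, a formin that binds Dishevelled, averaged 0.384 ± 0.172 FPKM in tumours and 2.69 ± 0.370 FPKM in glands (SD, n = 3 each), a log2 difference of -1.42 ± 0.19 (SE, adjusted p = 0.00111).

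Known target genes moved both ways. Outside the members, 17 were tested, of which 7 fell, 4 rose and 6 did not pass, with a median of 0.09. That is 41.2% lower and 23.5% higher, against 23.1% and 21.9% of all tested genes. Besides Axin2, Nkd1 and Apcdd1, Procr, a marker of basal mammary stem cells, had 2.97, 3.20 and 1.45 FPKM in tumours 1 to 3, against 9.78, 10.4 and 11.9 FPKM in glands 1 to 3. It fell (log2 difference -1.76 ± 0.23 SE, adjusted p = 0.00106). Ephb2, a receptor for ephrins, had a log2 difference of -1.28 (adjusted p = 0.00138). Cd44 averaged 30.4 ± 4.51 FPKM in tumours and 16.2 ± 0.997 FPKM in glands (SD, n = 3 each). It rose (log2 difference 0.86 ± 0.13 SE, adjusted p = 0.00207). Sox9, a factor of luminal progenitors, averaged 27.9 ± 4.58 FPKM in tumours and 14.4 ± 1.43 FPKM in glands (SD, n = 3 each). It rose (log2 difference 0.90 ± 0.15 SE, adjusted p = 0.00295). Mmp7, a matrix protease, was at 3.77, 1.10 and 2.33 FPKM in tumours and listed at 0 in all glands (adjusted p = 0.00484 by limma). Ccnd1, cyclin D1, had 59.8, 57.9 and 119.8 FPKM in tumours 1 to 3, against 57.5, 48.4 and 58.9 FPKM in glands 1 to 3. Tumour 3 alone stood out, and a log2 difference of 0.44 ± 0.28 (SE, adjusted p = 0.238) did not pass. With a pseudocount of 0.1 FPKM the log2 differences of the low genes Nkd1, Dact1, Pygo1, Daam2 and Ephb2 were -2.91, -2.02, -2.34, -2.58 and -2.49. With quantile normalization, which moved the median of all genes to 0.12, Porcn had -0.53, Gpc6 -0.75, Dact1 -0.68, Daam2 -0.81 and Ephb2 -0.66, all still called, while Ror1 had -0.50 and was not (adjusted p between 0.00282 and 0.138 over all settings tried). Notum, Sp5, Ascl2, Dkk1 and Lgr5, further targets, lay below the filter. Ascl2 had 2.62, 1.98 and 0.291 FPKM in tumours 1 to 3, against 0.410, 0.400 and 0.271 FPKM in glands 1 to 3, in overlapping groups. Notum and Sp5 were at 0 in all glands and reached at most 0.154 and 0.280 FPKM in tumours.

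**Figure D5:**
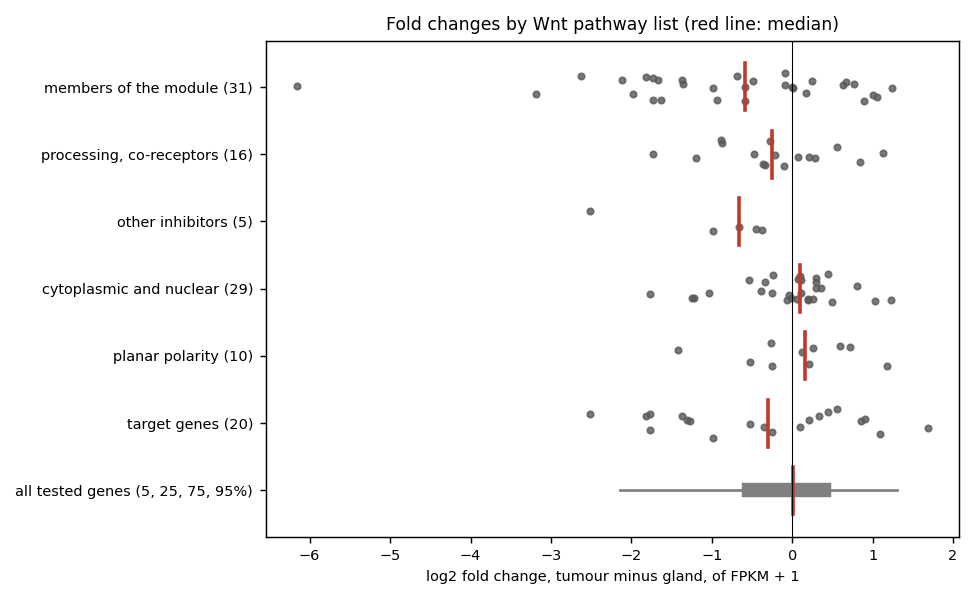
Log2 fold change of FPKM + 1, tumour minus gland, of each tested gene by Wnt pathway list, with a red line at the list median, and the 5th to 95th and 25th to 75th percentiles of all tested genes below. Some targets are members too; the medians run from -0.66 for other inhibitors to 0.16 for planar polarity, and the members have a median of -0.58.

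All 51 members were placed on 1 gene each in GENCODE M21. Some members are neighbours: Wnt10b had up to 0.906 FPKM where Wnt1, 11706 bases away on chromosome 15, was at 0, and Wnt9a had up to 1.17 FPKM where Wnt3a, 16175 bases away on chromosome 11, was at 0. Exons of 10 members overlap a gene on the other strand, among them Wnt5a, Wnt7b, Fzd5, Fzd6, Sfrp2, Lef1 and Tcf7l1, and reads of such pairs cannot be told apart here. No member shares an exon with a gene on its own strand. The 3 tumours were also not alike in the module: tumour 3 was the highest of the tumours for 17 of the 31 tested members and the lowest for 10, and tumour 1 was the lowest for 17 and the highest for 2. The same count was not made over all tested genes, so it is no trait of the module. Over all tested genes, log2 values had r = 0.982 between tumours 1 and 2. Tumour 3 had r = 0.944 with tumour 1 and 0.961 with tumour 2. Tumour 1 also came out as the shallowest of the tumours by the steps between values under 0.3 FPKM, at which tumours 2 and 3 came out 1.58 and 1.51 times as deep. Such steps did not agree across tissues, so this depth order is uncertain. By them, tumour 1 was 0.7 times as deep as gland 1 and 1.58 times as deep as gland 3. Yet gland 3 was 1.31 times as deep as gland 1.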

How the data were processed

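Total RNA libraries of 3 mammary tumours and 3 mammary glands were compared, tumour minus gland. Per the submitters' processing notes, HISAT2 and StringTie were used with build mm10; their versions and the strandedness are not given. The deposited table holds 1 value per gene symbol and library. Its header names no unit, and the values were taken as FPKM computed by the authors, because they are not whole, never negative and sum to different totals per library. Without counts, counting error did not enter the model.

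Genes averaging 1 FPKM or more across the 6 libraries were tested on log2(FPKM + 1) with limma 3.58.1 (R 4.3.3), with a mean-variance trend, 2-sided, and p-values were adjusted by Benjamini-Hochberg over all 13364 tested genes at a threshold of 0.05. This scale understates fold changes of low genes. All members are reported. From the other lists, up to 4 called genes per direction, by smallest p, and up to 2 not passing, by highest mean, could be named. Ndp, Tspan12, Adgra2, Retn and Pparg were named outside this rule, for their values. Notum, Sp5 and Ascl2, below the filter, were also named outside it. The members and lists were chosen with earlier results of these data known. Gene positions are from GENCODE M21 (GRCm38, also called mm10) and promoters from RefSeq. Alternatives were another pseudocount, other filters and scalings, no trend, a replicate block, tumours 1 and 2 averaged, and libraries left out. The test was checked on simulated data.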

Additional observations from a re-analysis of the deposited data

How the results depend on the processing

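Rspo1, Wnt2, Wnt4, Wnt5a, Fzd4, Sfrp5 and Wif1 kept direction and call under every alternative in which they were tested. Leaving out glands 1 and 3 together, which leaves 1 gland, changed the counts most: all genes had 760 higher and 1098 lower in place of 2933 and 3090, members 0 and 5 in place of 6 and 16, other Wnt pathway lists 1 and 4 in place of 13 and 19, and cell type lists 9 and 30 in place of 17 and 47. A mean of at least 5 FPKM left 9766 genes tested, of which 1864, or 19.1%, were lower and 25.2% higher. It left 6 lower in the other Wnt pathway lists, and a common sum per library left 7 higher there. The cause was not tested. With single libraries left out, members ranged over 4 to 7 higher and 13 to 17 lower, other Wnt lists over 7 to 14 higher and 13 to 25 lower, and the lowest count of 7 came without tumour 2, gland 2 or gland 3. The shares over all genes of these fits also moved, over 15.4 to 23.1% higher and 16.4 to 24.7% lower. Quantile normalization gave 8 members higher and 15 lower, moved the median log2 fold change of all genes to 0.12 and gave 3664 higher and 2622 lower, against 2276 and 3193 with a common sum per library.

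Labels do not pair tumours with glands. The deviations of same-numbered libraries from their group means had r = -0.054, -0.118 and -0.124 across genes, which are not independent replicates. With the replicate block, 4728 genes were called, and members stayed at 6 higher and 16 lower, with Tcf7l1 lost (adjusted p = 0.0789) and Lef1 gained (0.0449).

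Of the members and named list genes not called with all libraries, 7 changed sign under some alternative; the cause was not tested. Fzd2 had -0.0060 with median-of-ratios scaling, -0.049 with a common sum and -0.057 without glands 1 and 3, and ranged from -0.12 to 0.12 with single libraries left out. Fzd3 had 0.50 with quantile normalization and 0.017 with tumours 1 and 2 averaged, and ranged from -0.29 to 0.017. Wnt10a had -0.0068 with median-of-ratios scaling, -0.037 with a common sum, -0.26 without glands 1 and 3 and -0.042 with tumours 1 and 2 averaged, was called higher with quantile normalization (0.60, adjusted p = 0.043), and ranged from -0.11 to 0.13. With quantile normalization Wnt6 had 0.50, Fzd8 0.043 and Sostdc1 0.036, and Daam1 ranged from -0.012 to 0.21. No member that was called changed sign.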
